A study of Mus musculus with 17 samples.

Results

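The circadian clock genes described here are 10 genes of the mouse molecular clock: Arntl (whose protein is BMAL1), Clock, Per1, Per2, Per3, Cry1, Cry2, Nr1d1, Nr1d2 and Dbp. They were found by symbol in the deposited gene table, where each matched 1 row, so they are 10 of 36172 rows. All 10 passed the filter on low counts, which left 13965 genes for testing. The table holds messenger RNA levels of the extensor digitorum longus (EDL), a fast hindlimb muscle, and the clock genes were used to ask whether the animals differed in the state of the clock when their muscles were taken.

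The clock is a transcriptional loop that runs in nearly every cell, skeletal muscle fibres included. The proteins of Clock and Arntl bind E-box elements as a pair and switch on Per1, Per2, Per3, Cry1, Cry2, Nr1d1, Nr1d2 and Dbp. PER and CRY proteins then repress that pair, and the nuclear receptors REV-ERBα and REV-ERBβ, encoded by Nr1d1 and Nr1d2, repress Arntl. Dbp is an output: its protein activates further genes through D-box elements. In mouse tissues sampled around the day, the mRNAs are known to peak one after another, Nr1d1 first, then Dbp, Per1 and Per3, then Per2, later Cry1, and last Arntl with Npas2 and Clock, so that Arntl and Dbp run nearly opposite to each other. Muscle is known to use the clock to time glucose and fat metabolism.

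Each of the 17 samples was a separate mouse, 10 with an empty vector (EV) and 7 with a Hand2 vector. Hand2 codes for a transcription factor that sympathetic neurons express, and the title of the series concerns the preservation of those neurons and the muscle loss of ageing. The EV group held 5 females (2 of 22 months and 3 of 23 months) and 5 males (1 of 22 months and 4 of 23 months), and the Hand2 group held 4 females (3 of 22 months and 1 of 23 months) and 3 males (1 of 22 months and 2 of 23 months). The labels used here give no strain, no hour of collection and no date, and they do not say when, where or how the vectors were given, so all groups are old animals that carried a vector, with no young or untreated group among them. Animals are numbered within each vector in the order of the samples and the numbers pair nothing: EV 1 to 5 are females, EV 6 to 10 males, Hand2 1 to 3 and 5 females, and Hand2 4, 6 and 7 males.

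The libraries held 19181208 to 30942818 estimated counts, with a median of 26091234, so that 3 counts equal 0.0970 to 0.156 CPM, the count divided by the library's scaled size. Defining genes of fast muscle fitted the label: 9 of them, among them Myh4 and Pvalb, summed to 79490 to 100600 CPM in each animal, and 6 of slow muscle to 128 to 1314 CPM. Hand2 itself, the gene of the vector, was at 0.0704 to 0.928 CPM in the 10 EV libraries and at 1.02 to 26.2 CPM in the 7 Hand2 libraries (2 to 23.5 and 21 to 502.5 estimated counts). The CPM of the groups did not overlap, but the counts did: EV 8 had 23.5 counts (0.928 CPM) and Hand2 5 had 21 (1.02 CPM), so the gene says little of single libraries at this depth. The EV females 3, 4 and 5 are among the 4 highest animals in Per1, and EV 3 and 4 also stood apart in immediate-early genes, the fast transient responders to stimulation such as Fos. Results on the clock genes that rest on them are given with and without them.

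For some of the members with a motif match, stretches of promoter are shown because the loop acts on such genes through short motifs. The sequences are from RefSeq on GRCm38.p6, the build also called mm10 that the coordinates of the table follow, and 9 of the 10 members matched, all but Per2. Each is written 5′ to 3′ along the gene's own strand, in lower case with the motif match in capitals. In Arntl, whose repression by REV-ERB proteins goes through such sites, the capitals mark the short site that a single ROR or REV-ERB receptor binds (chr7:113207531-113207560, plus strand). In Per1 they mark an E-box (chr11:69098772-69098801, plus strand). In Per3 they mark 2 D-boxes, the element bound by DBP (chr4:151044708-151044915, minus strand). In Nr1d1 they mark an E′-box, a variant of the E-box (chr11:98775378-98775627, minus strand). In Cry1 they mark an E′-box followed by an E-box (chr10:85185055-85185304, minus strand).
Arntl: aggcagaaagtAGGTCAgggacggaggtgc
Per1: gcacccaagtcCACGTGcagggatgtgtgt
Per3: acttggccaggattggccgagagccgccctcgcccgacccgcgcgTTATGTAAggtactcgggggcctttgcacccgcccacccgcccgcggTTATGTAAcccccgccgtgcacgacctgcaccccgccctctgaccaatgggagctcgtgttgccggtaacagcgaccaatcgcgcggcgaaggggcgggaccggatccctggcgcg
Nr1d1: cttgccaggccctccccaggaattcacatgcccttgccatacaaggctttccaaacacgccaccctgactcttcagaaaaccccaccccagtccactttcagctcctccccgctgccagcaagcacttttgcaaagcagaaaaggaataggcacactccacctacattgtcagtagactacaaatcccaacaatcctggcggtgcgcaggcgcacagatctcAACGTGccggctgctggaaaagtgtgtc
Cry1: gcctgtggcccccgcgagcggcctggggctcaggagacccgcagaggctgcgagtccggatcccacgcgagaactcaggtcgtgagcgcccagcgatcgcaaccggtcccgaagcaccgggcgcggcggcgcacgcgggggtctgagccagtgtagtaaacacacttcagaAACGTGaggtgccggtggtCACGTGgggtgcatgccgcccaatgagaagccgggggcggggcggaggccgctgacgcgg

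The search read 13 windows of the 9 members, each of 250 bases before and 50 after an annotated start, on both strands. The E-box CACGTG lay in windows of 2 members, Per1 (first base at -166 from the start) and Cry1 (-60), and in 7.15% of all 32851 promoter windows. The E′-box CACGTT lay in 3 members, Cry1 (-79), Cry2 (-166) and Nr1d1 (-28), each as AACGTG on the gene's strand, and in 4.68% of all windows. The D-box TTANGTAA lay in 1 member, Per3, at -205 and -158, and in 2.32% of all windows. The receptor site AGGTCA lay in 4 members, Arntl (31 bases after a start), Nr1d2 (-77) and, as TGACCT, Clock (-119) and Per1 (-137), and in 16.3% of all windows. The cyclic AMP response element TGACGTCA lay in 0 members and in 1.79% of all windows, and the window of Dbp held none of the 5 motifs. None of these matches overlapped another, and a match is a run of letters, not evidence of a bound site.

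In the mm10 coordinates of the table Arntl (gene ID 11865) lies at chr7:113207465-113314126, Dbp (13170) at chr7:45705247-45710203, Per1 (18626) at chr11:69098956-69109957, Per2 (18627) at chr1:91415982-91459328 and Nr1d1 (217166) at chr11:98767935-98775242. Dbp overlaps Sphk2, on the other strand, by 741 bases, so reads there cannot be assigned without strand.

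All 10 clock genes were readily measured in the muscle, and per kilobase of exon their mean levels spanned from Nr1d1 to Clock. Nr1d1 stood at 81.9 ± 28.5 CPM per kilobase (SD, n = 17) and was above Dbp, the next, in 14 of 17 animals. Dbp at 38.4 ± 12.3 (SD, n = 17) was above Nr1d2, at 29.7 ± 4.03 (SD, n = 17), in 12 of 17 animals. Nr1d2 was above Per1, at 24.2 ± 21.9 (SD, n = 17), in 13 animals, and Per1 was above Cry2, at 13.6 ± 3.67 (SD, n = 17), in 10. Neighbours down to Cry2 in this order thus lay within each other's spread in part of the animals, whereas Cry2 exceeded Cry1, at 6.36 ± 0.75 CPM per kilobase (SD, n = 17), in all 17. Cry1 exceeded Arntl, the activator, at 3.96 ± 1.84 (SD, n = 17), in 16 of 17. Arntl, Per3 at 3.71 ± 0.95 and Per2 at 3.61 ± 2.04 CPM per kilobase (SD, n = 17 each) did not separate: Arntl was above Per3 in 8 animals and Per3 above Per2 in 9. Clock, the partner of Arntl, was last at 1.96 ± 0.44 CPM per kilobase (SD, n = 17), below Per2 in 13 of 17 animals.

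The animals differed far more in some clock genes than in others. The per-kilobase scale is left from here on, and levels are TMM-scaled CPM of 1 gene across animals. Per1, the light- and hormone-responsive member of the Per family, ran from 28.4 CPM in EV 7 to 426.4 CPM in EV 3, a 15.01-fold range, and its SD on the log2 CPM scale, 1.23, was above that of 99.2% of the genes tested. Per2, the later-peaking repressor, ran from 3.34 CPM in EV 6 to 39.2 CPM in Hand2 3, an 11.7-fold range with an SD of 1.10 on the log2 scale, above 98.8% of genes. Arntl spanned 5.002-fold, from 12.0 CPM in Hand2 3 to 59.9 CPM in EV 1, with an SD of 0.68 that exceeded that of 91.7% of genes. Dbp spanned 4.13-fold (SD 0.50 on the log2 scale, above 82.3% of genes) and Nr1d1 3.76-fold (SD 0.54, above 84.6%). The spread was narrower in Per3 (SD 0.40), Cry2 (0.38) and Clock (0.28), and Nr1d2 and Cry1 varied 1.61-fold and 1.48-fold (SD 0.20 and 0.17 on the log2 scale), below the 1.71-fold range (SD 0.22) of the median gene. The SD of Nr1d2 exceeded that of 47.4% and the SD of Cry1 that of 39.9% of genes, so both lay near the middle of the genes tested while Per1 and Per2 were among the most variable.

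**Figure D1:**
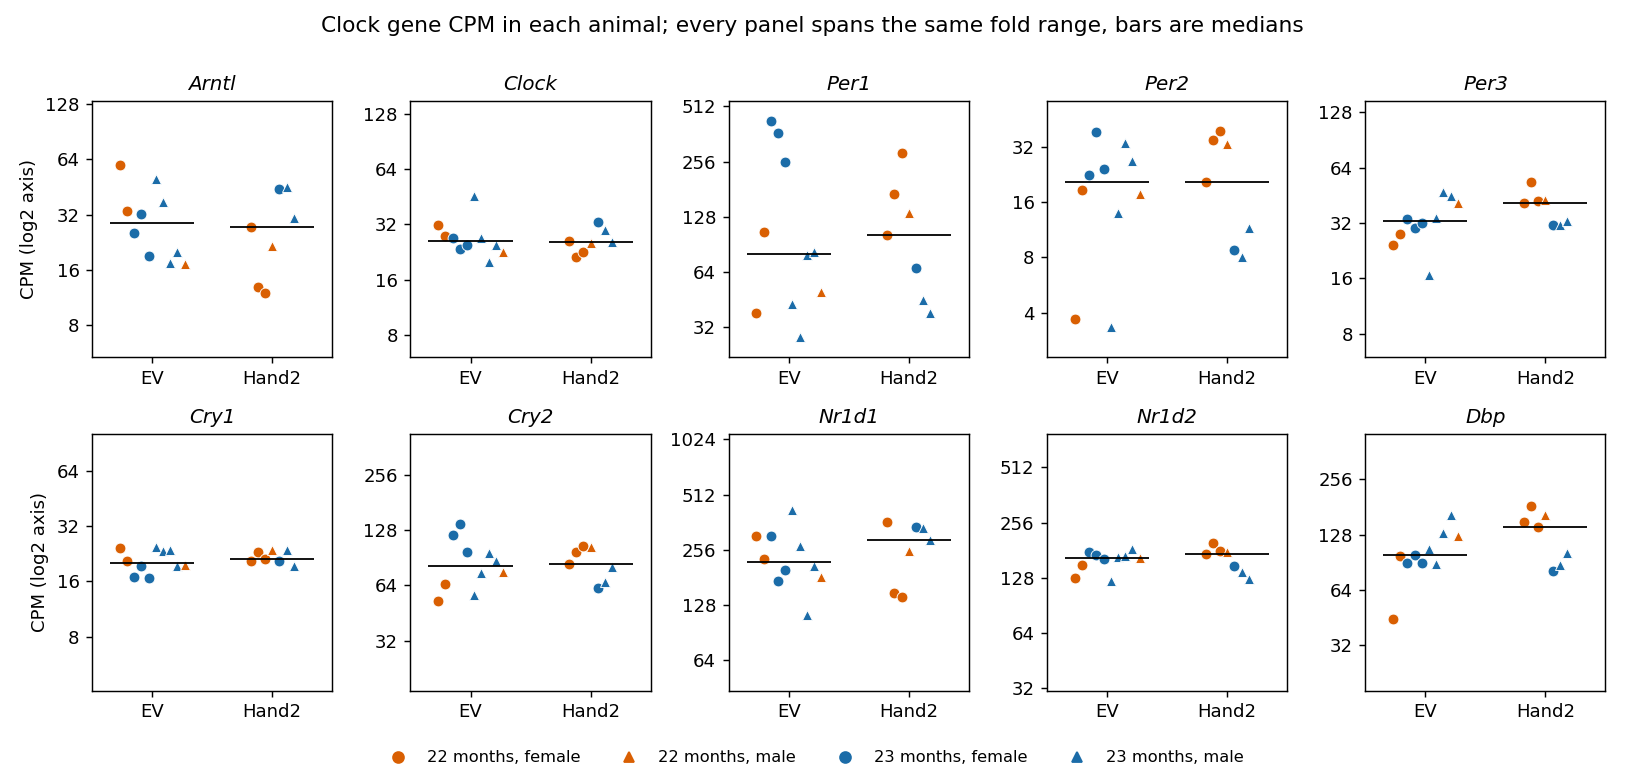
Level of each clock gene in every animal, in TMM-scaled CPM on a log2 axis, by vector, with colour for age, shape for sex and bars at the medians. Per1 spans 15.01-fold and Per2 11.7-fold over the 17 animals while Cry1 spans 1.48-fold, and the points of the EV and Hand2 groups overlap in each of the 10 genes.

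The clock genes varied together from animal to animal in opposed sets, with Arntl and Clock on one side and Per2, Per3, Nr1d2 and Dbp on the other. The 2 extremes show it in single muscles. EV 1 had the highest Arntl at 59.9 CPM, with Dbp at 44.6, its lowest value in the study, and Per2 at 3.70 CPM. Hand2 2 had Arntl at 12.99 CPM, with the highest Dbp at 184 CPM, the highest Per3 at 53.3 CPM and Per2 at 34.9 CPM. So 1 EV and 1 Hand2 female, both of 22 months, held the lowest and the highest Dbp of the study. In bulk RNA, fewer cells of a type and less RNA per cell cannot be told apart, and that holds for each level given here.

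Among the activators, Arntl and Clock ran in parallel (Pearson's r = 0.80 on log2 CPM over 17 animals, permutation p = 2e-05, adjusted p = 0.00015 over 45 pairs of members, Spearman's rho = 0.89). Arntl ran against the output gene Dbp (r = -0.75, permutation p = 0.00044, adjusted p = 0.00141, rho = -0.70). Against Per2 the relation had the largest r of its 9 pairs (r = -0.83, rho = -0.79, permutation p = 1e-05, the smallest that 100000 permutations can give, adjusted p = 0.00015). Arntl also ran against Per3 (r = -0.81, permutation adjusted p = 0.00045), against Nr1d2 (r = -0.78, permutation adjusted p = 0.00107) and against Cry2 (r = -0.66, permutation adjusted p = 0.00859). These 5 relations with Dbp, Per2, Per3, Nr1d2 and Cry2 were all negative, as the background order of peaks has it for Dbp and Per2. Without the 2 animals farthest from the median in Arntl they stood at r = -0.68, -0.77, -0.80, -0.73 and -0.55, and that with Cry2 no longer passed (permutation adjusted p = 0.0624).

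Nr1d1 and Nr1d2, which encode the repressors of Arntl, parted from each other. Nr1d1 ran with Arntl (r = 0.78, permutation p = 0.00023, adjusted p = 0.000863, rho = 0.78, and r = 0.76 without the 2 farthest animals) and with Clock (r = 0.84), whereas Nr1d2 ran against Arntl. EV 6, with Arntl at 50.1 CPM, had the highest Nr1d1 at 424.4 CPM and the lowest Nr1d2 at 122.5 CPM. EV 8, with Arntl at 17.4 CPM, had the lowest Nr1d1 at 112.9 CPM and Nr1d2 at 167.9 CPM. With Dbp, which peaks soon after it, Nr1d1 showed no relation that passed the threshold (r = -0.43, permutation adjusted p = 0.115). Toward Arntl, Nr1d1 thus had the opposite sign to Dbp, its neighbour in the background order of peaks, and the reason was not tested. In RefSeq the end of Thra, a thyroid hormone receptor gene on the other strand, overlaps Nr1d1 by 1075 bases, whereas in the coordinates of the deposited table Thra ends at 98765111, before Nr1d1 begins at 98767935. Since no source used here says whether counting used strand, reads from the RefSeq overlap cannot be told apart. Thra was itself among the 5 genes whose level ran closest to Arntl (r = 0.86).

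The relation of Per1 to Arntl over all animals was weaker (r = -0.54, rho = -0.55, permutation p = 0.0279, adjusted p = 0.0418). Its call there rested on the 2 animals farthest from the median in Arntl, without which r was -0.39 (permutation p = 0.148). The call was also lost when any of 11 of the 17 animals was left out. Without EV 3, 4 and 5 r was -0.73 (permutation adjusted p = 0.00566). On residuals from the 4 vector-by-sex means r was -0.75 (permutation adjusted p = 0.000959). Within the subsets by sex, vector and age the relation passed only in Hand2 animals (r = -0.88, exact permutation adjusted p = 0.0308). Cry1 showed no relation with Arntl (r = 0.30, permutation adjusted p = 0.291).

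**Figure D2:**
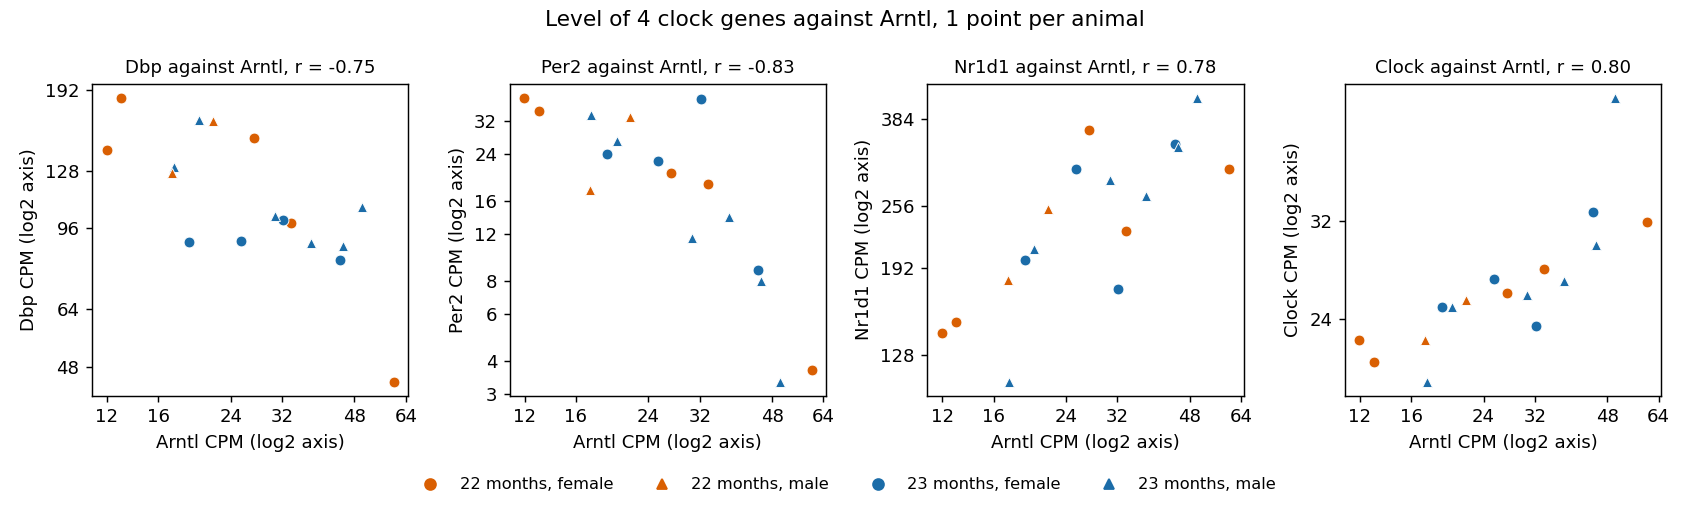
Arntl on the x axes against other clock genes on the y axes, in CPM on log2 axes, with 1 point for each of the 17 animals, colour for age and shape for sex. The panels hold Dbp, Per2, Nr1d1 and Clock. Dbp (r = -0.75) and Per2 (r = -0.83) descend from left to right, while Nr1d1 (r = 0.78) climbs with Arntl.

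Among the genes on the other side, the members ran together. Dbp ran with Per3 (r = 0.68, permutation adjusted p = 0.00814), Per2 (r = 0.68, permutation adjusted p = 0.00585) and Nr1d2 (r = 0.66, permutation adjusted p = 0.0066). Its relations with Clock (r = -0.50) and Cry2 (r = 0.49) had a permutation adjusted p of 0.0654 each, with Per1 (r = 0.29) 0.301. Without EV 3, 4 and 5 those with Cry2 (r = 0.83) and Per1 (r = 0.65) passed (permutation adjusted p = 0.00031 and 0.0164). That with Clock did not (r = -0.55, permutation adjusted p = 0.0651). On residuals from the 4 vector-by-sex means those with Cry2, Per1 and Clock passed, at r = 0.72, 0.79 and -0.56. Dbp with Clock also passed by Spearman's rho over all animals (-0.66, permutation adjusted p = 0.00937). Without the 2 animals farthest from the median in Clock it passed too (r = -0.75, permutation adjusted p = 0.0052). The relations of Dbp with Per3, Per2 and Nr1d2 were not called within males or within EV. At 23 months they stood at r = 0.41, 0.34 and 0.31 (n = 10, permutation adjusted p = 0.316, 0.413 and 0.462). The tightest pairs over all animals were Clock with Per3 (r = -0.88) and Per2 with Nr1d2 (r = 0.88). Clock with Per2 (r = -0.865) and Per2 with Cry2 (r = 0.864) came next. Per1 was closest to Cry2 (r = 0.81) and Per2 (r = 0.70). In all, 30 of the 45 pairs passed an adjusted p of 0.05, 15 with a positive and 15 with a negative r. The counts with Spearman's rho and with the log2 values the authors normalized were also 30. For comparison, the r of Arntl with all genes tested had a median of -0.01 and a 5th to 95th percentile range of -0.51 to 0.52.

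**Figure D3:**
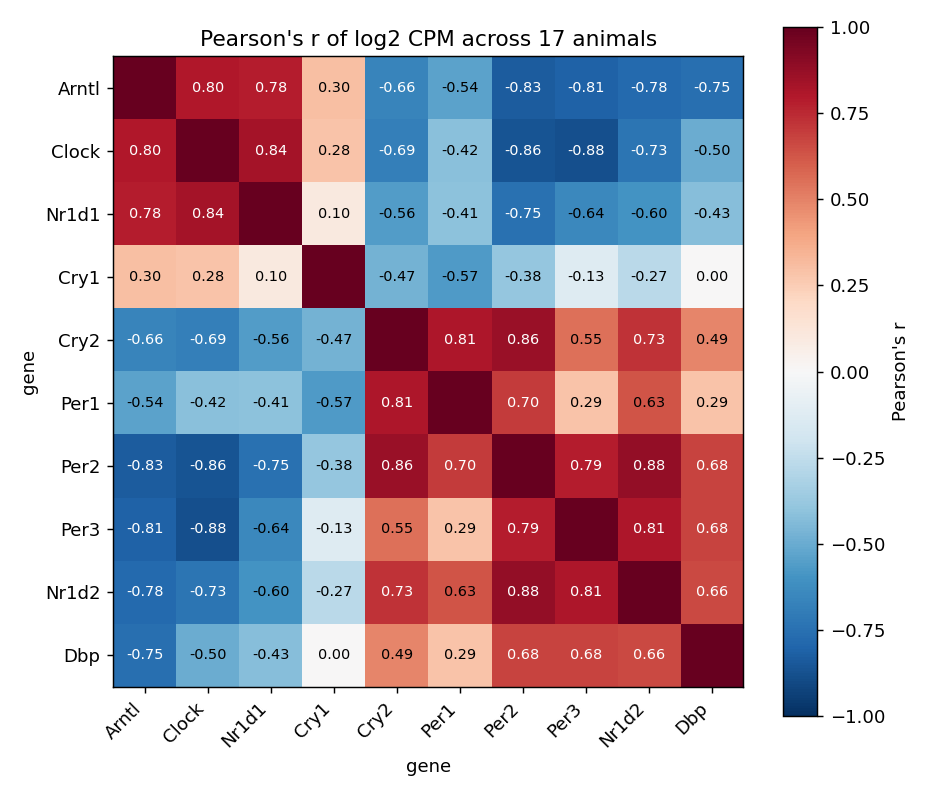
Pearson's r of log2 CPM over 17 animals for each of the 45 pairs of clock genes, with colour from -1 to 1. Arntl, Clock and Nr1d1 form one block of positive values and Per2, Per3, Nr1d2, Cry2 and Dbp another, with negative values between the blocks.

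The relations of Arntl with Dbp, Per2 and Nr1d1 kept their sign within each sex, vector and age. Arntl with Dbp gave r = -0.81 in females (n = 9, exact permutation adjusted p = 0.025) and -0.76 in males (n = 8, exact permutation adjusted p = 0.0925). It gave r = -0.70 in EV (n = 10, permutation adjusted p = 0.0375) and -0.83 in Hand2 animals (n = 7, exact permutation adjusted p = 0.0547). Only at 23 months was it as low as -0.54 (n = 10, permutation adjusted p = 0.177), against -0.84 at 22 months (n = 7, exact permutation adjusted p = 0.0402). Arntl with Per2 held its sign and passed the threshold in each of these 6 subsets, from r = -0.79 in EV to -0.94 in Hand2 animals. Arntl with Nr1d1 ranged from 0.73 in females to 0.92 in Hand2 animals, with an exact permutation adjusted p of 0.0602 in females and 0.0633 at 22 months. Arntl with Cry2 kept its sign but was not called in females, males, EV or at 23 months (r from -0.79 to -0.56), and Arntl with Nr1d2 was not called in males, Hand2 animals or at 23 months (r from -0.78 to -0.66). On residuals from the 4 vector-by-sex means, r was -0.77 for Dbp, -0.85 for Per2 and 0.81 for Nr1d1. Without EV 3, 4 and 5 it was -0.82, -0.90 and 0.84.

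Several other genes of the clock fell into the same opposed sets. Of 23 listed, 21 passed the filter on low counts, and Bhlhe41 and Fbxl21 did not. Npas2, a paralogue of Clock that also pairs with BMAL1, followed Arntl (r = 0.85, permutation adjusted p = 0.00168 over 42 relations) and opposed Dbp (r = -0.70, permutation adjusted p = 0.0153). Its level was low, from 0.63 to 4.63 CPM. Tef and Hlf, the D-box activators related to Dbp, opposed Arntl (r = -0.68 and -0.61, permutation adjusted p = 0.0192 and 0.0373) and followed Dbp (r = 0.64 and 0.66, permutation adjusted p = 0.0234 and 0.0192). Usp2, a clock-driven deubiquitinase, opposed Arntl (r = -0.75, permutation adjusted p = 0.0153), as did the kinase gene Wee1 (r = -0.68, permutation adjusted p = 0.0192) and Cipc, a repressor of CLOCK (r = -0.66, permutation adjusted p = 0.0195). Csnk1d, a kinase of PER proteins, did so at r = -0.59 (permutation adjusted p = 0.0452), whereas Ciart, a repressor, had r = -0.56 (permutation adjusted p = 0.0677) and Nfil3, the D-box repressor, r = 0.00.

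Beyond the clock, the genes nearest to Arntl in pattern over the 17 animals were Syne1 (r = 0.92), Gramd4 (0.92), Zhx2 (0.89), Thra (0.86) and Ank1 (0.86), and those most opposed were Acat3 (r = -0.88), Fmo2 (-0.86), Tspan4 (-0.85), Ap4b1 (-0.84) and Plcb4 (-0.84). Nearest to Dbp were Rsrc2 (r = 0.88), Bfar (0.81), Clk4 (0.80), Lmbr1l (0.77) and Lmbrd1 (0.77), and most opposed Fam20c (r = -0.83), Tbc1d8 (-0.82), Ggct (-0.80), Zhx2 (-0.80) and Fam110b (-0.80). Zhx2 was the 1 gene in both sets. These are the extremes of 13965 genes and are given as a description, with no test.

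The first question of the design was whether the Hand2 vector moved the clock genes. No member passed the test. Arntl ran from 17.3 to 59.9 CPM (median 28.8, mean 31.3 ± 14.6, SD, n = 10) in EV and from 12.0 to 44.99 CPM (median 27.3, mean 27.7 ± 13.4, SD, n = 7) in Hand2 animals. The 2 ranges overlapped, and the log2 fold change, Hand2 over EV with sex in the model, was -0.18 ± 0.34 (SE, edgeR adjusted p = 0.962), with a 95% interval of -0.91 to 0.55. Dbp ran from 44.6 to 165 CPM (median 99.3, n = 10) in EV and from 81.7 to 184 CPM (median 142, n = 7) in Hand2 animals, a log2 fold change of 0.37 ± 0.22 (SE, edgeR adjusted p = 0.921) with a 95% interval of -0.10 to 0.85. Dbp had the highest fold change of the 10, and Arntl the lowest.

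Of the 10 members 0 passed an edgeR adjusted p of 0.05 for the vector, 0 had an unadjusted p under 0.05, and 0 passed with DESeq2 or limma-voom. Over the 13965 genes tested 0% were called (0 genes, with 705 at an unadjusted p under 0.05, 1 called by DESeq2 and 0 by limma-voom). The median log2 fold change of the members was 0.05, against -0.004 for all genes. Within females, with 0% of all genes called, Dbp had 0.72 ± 0.27 (SE, p = 0.0193, edgeR adjusted p = 0.827). It was the 1 member with an unadjusted p under 0.05, where 824 of all 13965 genes had one. Within males 0% of all genes and 0 members were called, and for the difference of the vector effect between the sexes likewise 0% and 0 members. There Dbp stood at -0.79 ± 0.41 on the log2 scale (SE, males minus females). Without EV 3, 4 and 5 the vector estimate of Per1 changed from -0.15 ± 0.48 (SE) to 0.68, still without passing the test. Of the other 21 clock genes 0 were called.

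Between the sexes Per1 had the largest difference of the 10 members, though it did not pass the threshold. In females Per1 ran from 38.6 to 426.4 CPM (median 171, mean 202 ± 138, SD, n = 9) and in males from 28.4 to 134 CPM (median 47.7, mean 62.6 ± 34.6, SD, n = 8). The highest values were those of the females EV 3, EV 4, Hand2 3 and EV 5, at 426.4, 365.7, 286.7 and 256 CPM. The lowest female, EV 1 at 38.6 CPM, lay inside the male range. The log2 fold change, male over female with vector in the model, was -1.68 ± 0.49 (SE, p = 0.00385, edgeR adjusted p = 0.0594). Without EV 3, 4 and 5 it was -0.77 (edgeR adjusted p = 0.472), and DESeq2 called it in all animals (adjusted p = 0.00622). Leaving out EV 1, Hand2 4 or Hand2 5 brought the edgeR adjusted p to 0.0257, 0.0302 and 0.0431. The other 9 members ran from -0.33 in Per2 to 0.23 in Dbp. So 0 of 10 members were called for sex by edgeR, while 5.63% of all genes were. Of the other 21 clock genes 0 were called and 4 had an unadjusted p under 0.05, as had 3017 of all 13965 genes.

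Slow muscle genes moved with sex in the same animals: all 6 were lower in males (edgeR adjusted p of at most 0.0092), with a sum of 262 to 1314 CPM in females and 128 to 300 CPM in males. Of 10 genes known to respond to glucocorticoids, a list that holds Per1 itself, 2 were called lower in males, and their sum was 974.8 to 3170 CPM in females and 803 to 1703 CPM in males. Adipocyte markers were lower in males too: 3 of 4 were called, Adipoq, Lep and Plin1 (edgeR adjusted p = 0.023, 0.0382 and 0.024), with a sum of 18.2 to 61 CPM in females and 7.95 to 27.8 CPM in males. EV 3, 4 and 5 held 2605, 3170 and 2600 CPM of the glucocorticoid sum, where the median of females was 1830. The calls of these lists for sex are given with those animals only. The part of any of these lists in the Per1 values of the sexes was not tested.

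Per1 followed Tsc22d3 and Fkbp5 from animal to animal. These were the only other genes of the glucocorticoid list set against it, and the rest were not correlated with Per1. Tsc22d3 (GILZ), a direct target of the glucocorticoid receptor, had r = 0.91 with Per1 (rho = 0.83, permutation p = 1e-05, the smallest possible, adjusted p = 0.00036 over 36 relations), and r = 0.85 without EV 3, 4 and 5. Fkbp5, another such target, had r = 0.73 (permutation adjusted p = 0.00882). Ucp3 and Pdk4, genes of fat use in muscle, had r = 0.84 and 0.77 with Per1 (permutation adjusted p = 0.00108 and 0.00504). The immediate-early gene Fos did not pass (r = 0.33, permutation adjusted p = 0.312), although its list of 12 genes summed to 3279 CPM in EV 3, 1714 in EV 4 and 587 in EV 5, where the median of all animals was 584. With Tsc22d3, Per2 had r = 0.68 (permutation adjusted p = 0.0151), Arntl -0.54 (0.101) and Dbp 0.29 (0.383). The difference between those values of r and that of Per1 was not tested.

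**Figure D4:**
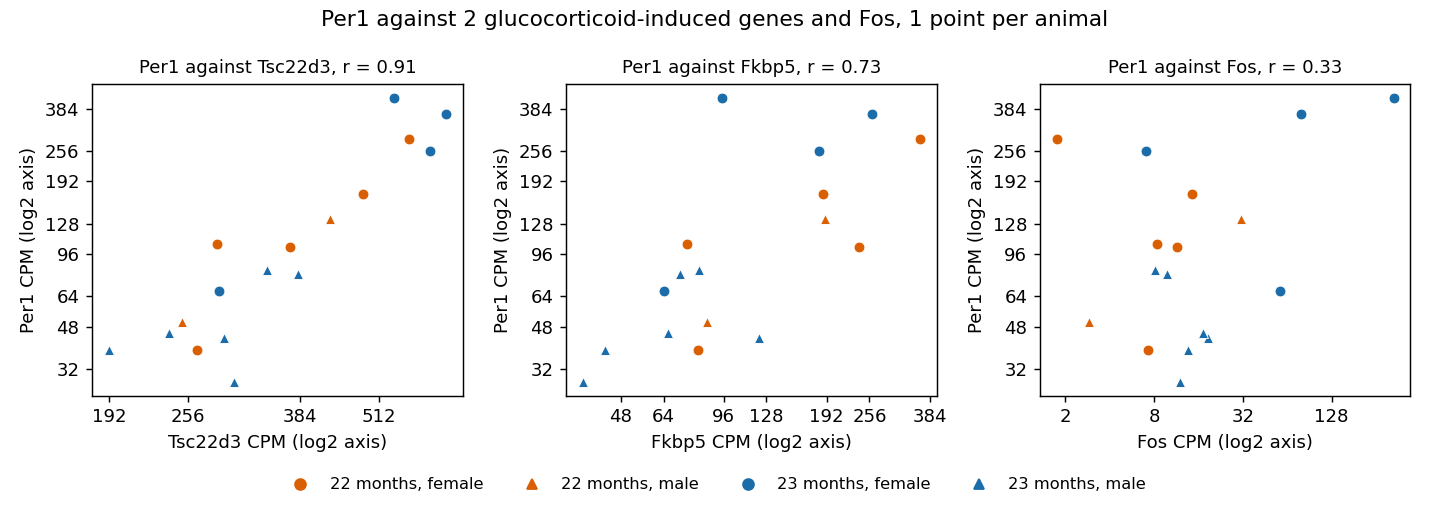
Per1 on the y axes against Tsc22d3, Fkbp5 and Fos on the x axes, in CPM on log2 axes, with 1 point for each of the 17 animals, colour for age and shape for sex. Per1 climbs with Tsc22d3 (r = 0.91) and less regularly with Fkbp5 (r = 0.73), and Fos is high in few animals (r = 0.33).

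Age was the last label, at 22 and 23 months. With vector and sex in the model the 10 members had log2 fold changes, 23 over 22 months, from -0.31 in Dbp to 0.32 in Arntl. None was called and none had an unadjusted p under 0.05, with 0% of all genes called (0 genes, 1253 at an unadjusted p under 0.05, 7 called by DESeq2, 0 by limma-voom). The comparisons of age within each vector that follow were added after the animals' values were seen.

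Within the Hand2 group the 22-month animals had low Arntl and high Dbp and Per, and the 23-month animals the reverse. The former were 3 females and 1 male and the latter 1 female and 2 males, so these levels mix age with sex. Arntl stood at 27.3, 12.99, 11.97 and 21.7 CPM at 22 months (Hand2 1 to 4) and at 44.3, 44.99 and 30.7 CPM at 23 months (Hand2 5 to 7), so the 2 ages did not overlap. Dbp, its opposite, stood at 150.9, 184, 141.9 and 164 CPM at 22 months and at 81.7, 87.8 and 102.2 CPM at 23 months, again with no overlap. Per2 stood at 20.5, 34.9, 39.2 and 33.1 CPM against 8.80, 8.02 and 11.6 CPM, so that each 22-month animal was above each 23-month animal.

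Per1 stood at 102.3, 171, 286.7 and 134 CPM at 22 months and 67.8, 45.3 and 38.5 CPM at 23 months. Per3 stood at 40.9, 53.3, 42.1 and 42.6 CPM against 31.1, 31.2 and 32.9 CPM. Both were thus lower in each of the 3 older animals. With Cry2 and Nr1d2 as well, 7 of the 10 members had ranges that did not overlap between the ages of the Hand2 group. The same held for 16.1% of all genes tested. Members ran together within Hand2 animals (r = -0.94 for Arntl with Per2, 0.96 for Per3 with Dbp), so these 7 are not separate observations. Nr1d1, at 365, 148.8, 141.7 and 252.8 CPM at 22 months and 342.8, 336.9 and 288.6 CPM at 23 months, overlapped because of Hand2 1, and Clock and Cry1 overlapped too.

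None of these differences passed edgeR's test, which had sex in the model. For Dbp the log2 fold change, 23 over 22 months, was -0.99 ± 0.27 (SE, p = 0.00244, edgeR adjusted p = 0.164), with an adjusted p of 0.0633 to 0.384 when 1 animal was left out. Both DESeq2 (adjusted p = 0.00686) and limma-voom (0.0385) called it. Arntl had 1.13 ± 0.47 (SE, edgeR adjusted p = 0.341), Per2 -1.72 ± 0.71 (0.334), Per1 -1.23 ± 0.65 (0.458) and Nr1d2 -0.38 ± 0.12 (0.195). In this comparison 0 of 10 members were called by edgeR, 4 had an unadjusted p under 0.05, and 0% of all genes were called (1806 at an unadjusted p under 0.05, 256 called by DESeq2, 126 by limma-voom). The 4 Hand2 animals of 22 months are also those whose sample titles lack the letter for sex, so age and any difference behind that naming cannot be told apart.

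Within EV the ages overlapped in all 10 members. Arntl stood at 59.9, 33.6 and 17.3 CPM in the 3 EV animals of 22 months (EV 1, 2 and 10) and from 17.4 to 50.1 CPM (median 25.4, n = 7) in those of 23 months. Dbp stood at 44.6, 98.6 and 126.4 CPM against 89.1 to 165 CPM at 23 months. These 3 animals held both the highest and the lowest Arntl of the EV group. Again 0 members and 0% of all genes were called (2008 genes at an unadjusted p under 0.05, 184 called by DESeq2, 2 by limma-voom), and Cry2, at 0.58 ± 0.22 (SE, edgeR adjusted p = 0.272), and Per1, at 1.38 ± 0.59 (SE, 0.319), had an unadjusted p under 0.05.

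The difference of the age effects, Hand2 minus EV, was tested directly and 0 members passed, with 0.38% of all genes called (53 genes, 24 higher and 29 lower). Dbp stood at -1.22 ± 0.35 (SE, edgeR adjusted p = 0.111), Nr1d2 at -0.55 ± 0.15 (0.103), Cry2 at -1.01 ± 0.33 (0.149) and Per2 at -2.53 ± 0.93 (0.204), all lower, and Arntl at 1.46 ± 0.62 (0.259). Of the members 6 had an unadjusted p under 0.05, and DESeq2 called 4 of them: Cry2, Dbp, Per1 and Nr1d2. Over all 13965 genes 2288 had an unadjusted p under 0.05 and DESeq2 called 560. Of the other 21 clock genes 1 was called, the D-box activator Tef, at -0.70 ± 0.14 (SE, edgeR adjusted p = 0.046). Tef had a mean of 418 CPM at 22 months and 340.0 CPM at 23 months in Hand2 animals, and 311 and 398.5 CPM in EV. Its call was lost when any of 13 of the 17 animals was left out (adjusted p from 0.0219 to 0.187) and without EV 3, 4 and 5 (-0.65, adjusted p = 0.106). It was also lost with upper-quartile scaling (adjusted p = 0.0628) and with a stricter filter (0.0501).

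Markers outside the clock were called in the same comparison. Of 3 endothelial markers 2 were higher in the difference, Cdh5 at 0.50 (edgeR adjusted p = 0.0376) and Kdr, a receptor for vascular growth factor, at 1.71 (0.0413). Kdr stood at 27.6 to 49.3 CPM at 22 months and 61.3 to 90.2 CPM at 23 months in Hand2 animals, and at 81.4 to 95.3 and 25.2 to 81.2 CPM in EV. Of the 10 glucocorticoid-responsive genes 1 was called lower, Tsc22d3 at -1.56 (edgeR adjusted p = 0.0376). In that list 9, Per1 among them, had an unadjusted p under 0.05, as had 2288 of all 13965 genes. Without EV 3, 4 and 5 the calls of Cdh5 (adjusted p = 0.0876) and Kdr (0.0778) were lost and that of Tsc22d3 was not (0.045). Leaving out 1 animal gave an adjusted p of 0.0243 to 0.139 for Cdh5, 0.0221 to 0.177 for Kdr and 0.0159 to 0.139 for Tsc22d3. The part of these genes in the values of the clock genes was not tested.

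A single value of clock state, the log2 ratio of Arntl to Dbp in each animal, places the groups side by side. In Hand2 animals it was -2.47, -3.83, -3.57 and -2.92 at 22 months and -0.88, -0.96 and -1.74 at 23 months. In EV it was 0.43, -1.56 and -2.87 at 22 months, and from -3.03 to -1.09 (median -1.83, n = 7) at 23 months. The log2 ratio of Arntl to Per2 gave the same split of the Hand2 group, from -1.71 to 0.41 at 22 months and from 1.41 to 2.49 at 23 months. Both ratios combine members, so they are given as values with no test. In EV the ratios of the 2 ages overlapped.

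**Figure D5:**
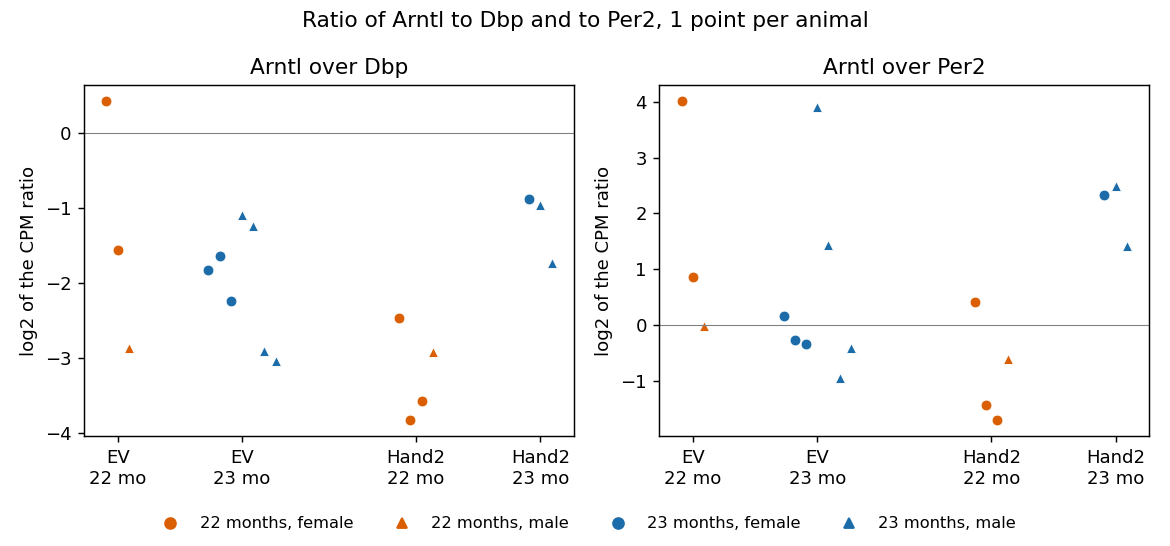
Log2 ratio of Arntl to Dbp and of Arntl to Per2 in each animal, by vector and age, with shape for sex. The 4 Hand2 animals of 22 months lie between -3.83 and -2.47 in Arntl to Dbp and the 3 of 23 months between -1.74 and -0.88, while the EV animals of 22 and 23 months overlap.

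Other measures moved with age inside the Hand2 group. The 22-month libraries held 25410180 to 30715990 counts and the 23-month libraries 19181208 to 22051694. The sum of the 9 fast muscle genes was 79490 to 92150 CPM against 94800 to 100600 CPM, and that of 3 endothelial genes 249.6 to 291 against 296 to 373 CPM. The sum of the 10 glucocorticoid-responsive genes was 1703 to 2901 CPM at 22 months and 803 to 1051 CPM at 23 months, with Ucp3 at 383 to 1115 and 92.0 to 120.1 CPM. The 12 immediate-early genes overlapped, at 481 to 678 and 475 to 765 CPM. The part of any of these in the clock values was not tested, and since the labels used here carry no hour of collection, hour, day and age cannot be told apart. The sexes were unevenly split between these ages, and the part of sex in these ranges was not tested either.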

How the data were processed

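RNA of the EDL muscle of 17 mice was made into libraries with Illumina TruSeq v2, per the labels, and read against mm10, per the submitters' processing notes. No source used here names the aligner, the counting tool or the use of strand. The deposited table gives for each gene an estimated count per animal, after a re-alignment of reads based on RefSeq per the file headers, and a normalized log2 value that the authors computed. Of the values above 0, 25.5% to 29.3% per library were whole within 0.001, so counts were rounded to whole numbers. The log2 values deposited by the authors were used as an alternative.

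Genes were filtered with filterByExpr by vector and sex, scaled by TMM and tested with edgeR 4.0.16 (robust quasi-likelihood F test, R 4.3.3), with Benjamini-Hochberg adjustment over all 13965 genes and a threshold of 0.05. Each standard error is the log2 fold change over √F, with 95% intervals. DESeq2 1.42.0, limma-voom (limma 3.58.1), other scalings and filters, an added age term and leaving out each animal in turn were alternatives. Correlations were taken on log2 CPM (prior count 2) and tested with 100000 permutations, or all permutations where n was under 10. CPM per kilobase used exon lengths of the GENCODE annotation. The scripts were tested on simulated data.

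The 10 members and all gene lists were chosen with earlier results of these data known. All members were named whatever their p, as were other clock genes where a sentence is about their role, and for Arntl and Dbp the 5 highest and 5 lowest genes by r. No pair of libraries was alike within sampling noise (mean chi-square of the closest pair 7.16, over genes with 20 or more counts). Intervals are for the log2 fold change between groups, not for single animals, and rest on the spread between animals at these depths.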

Additional observations from a re-analysis of the deposited data

Results flagged for a closer look

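Clock, the partner of Arntl, stood at 45.9 CPM in EV 6, with the next EV animal, EV 1, at 31.9 CPM. The gap was 0.54 of the range of the 10 EV animals, above the limit for a sample far from its group. Such a value is met by chance in about 1 in 20 groups, and 1 was found in the 20 groups of values examined (10 genes in each of 2 vectors). EV 6 also held the highest Nr1d1 and the lowest Per2, Per3 and Nr1d2 of all 17 animals.

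Tef, the D-box activator related to Dbp, had an age effect that differed between the vectors, at -0.70 on the log2 scale (Hand2 minus EV, edgeR adjusted p = 0.046). It was the 1 called among the 21 clock genes outside the 10 members, none of which was called. The call was lost without any of 13 of the 17 animals, with upper-quartile scaling (adjusted p = 0.0628) and with a stricter filter (0.0501).

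The same difference of age effects was called in 3 genes outside the clock: the endothelial markers Cdh5, at 0.50, and Kdr, at 1.71, and the glucocorticoid-responsive Tsc22d3, at -1.56 on the log2 scale. Leaving out 1 animal ended the call of Cdh5 in 7, of Kdr in 10 and of Tsc22d3 in 7 of 17 cases.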

How the results depend on the processing

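With edgeR 0 of the 10 clock genes were called in any comparison. DESeq2 called 1 for sex, 1 for age in Hand2 and 4 for the difference of age effects, and limma-voom 1 for age in Hand2. Counts over all genes moved more: DESeq2 gave 1 for the vector, 1276 for sex, 7 for age, 7 for the vector in females, 1 in males, 184 for age in EV, 256 for age in Hand2 and 560 for the difference of age effects, and limma-voom 2, 126 and 232 for the last 3. Without EV 3, 4 and 5 the counts were 291 for sex, 39 for age in Hand2 and 7 for the difference, and with no filter 1 for age in EV and 19 in Hand2. Leaving out 1 animal gave 0 to 1 for the vector, 476 to 952 for sex, 0 to 9 for age, 0 to 1 for the vector in females, 0 to 2 in males, 0 to 448 for age in EV (448 without EV 1), 0 to 46 for age in Hand2 and 0 to 156 for the difference, and 0 to 1 clock genes for sex and 0 to 1 for the difference (Nr1d2 without EV 6). The cause of these shifts was not tested.

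Pairs of clock genes that passed numbered 15 in males, 19 in EV, 18 in Hand2 and 15 at 23 months, with fewer animals each, and 25 to 31 when 1 animal was left out. Arntl with Dbp no longer passed in males (-0.76), Hand2 (-0.83) or at 23 months (-0.54). Kdr in the difference of age effects was not called with no filter (adjusted p = 0.0632), and Tef not with upper-quartile scaling (0.0628) or a stricter filter (0.0501).

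Signs turned in the values below, none of which passed in all animals. For the vector these were Per1 0.68, Cry1 -0.026 and Cry2 0.29 without EV 3, 4 and 5, and Per2 -0.068, Cry2 0.041 and Nr1d2 -0.0027 with an age term. For sex they were Arntl -0.11, Clock -0.0020, Per2 0.013 and Cry2 0.15 without EV 3, 4 and 5, and Arntl -0.10 with an age term. Cry1 in the difference of age effects gave 0.038 with upper-quartile scaling and 0.0018 with a stricter filter. Arntl with Cry1 was -0.14 within Hand2 and Dbp with Per1 -0.076 at 23 months. Dbp with Cry1, at 4.59e-07 in all animals, was -0.0025 by rho, -6.3e-06 with a prior count of 0.5, -0.013 on the authors' values, -0.014 with DESeq2 size factors, -0.35 on residuals, -0.26 without EV 3, 4 and 5, -0.021 in females, -0.27 in males, -0.21 in EV, -0.28 at 22 months and -0.22 without the 2 farthest animals. Leaving out 1 animal turned Arntl (-0.12 to 0.22), Clock (-0.079 to 0.12) and Nr1d1 (-0.082 to 0.19) for sex, Clock (-0.14 to 0.040), Per1 (-0.54 to 0.029), Per2 (-0.15 to 0.26), Cry2 (-0.10 to 0.079) and Nr1d2 (-0.022 to 0.079) for the vector, Cry1 (-0.15 to 0.11) in the difference of age effects, and Dbp with Cry1 (-0.085 to 0.28). No paired analysis was possible because the replicate numbers only follow the order of the samples.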

Other observations

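The clock outputs known in muscle gave 12 further genes, among them Ucp3, Pdk4, Tcap and Myod1. None was called for the vector, with log2 fold changes from -0.21 to 0.14, nor for sex or age. In the difference of the age effects between the vectors 0 of 12 passed. Of the 12, 3 had an unadjusted p under 0.05, as had 2288 of all 13965 genes. Ucp3, a mitochondrial carrier tied to fat use, stood at 383 to 1115 CPM in Hand2 animals of 22 months and 92.0 to 120.1 CPM in those of 23 months, against 138 to 358 and 59.2 to 1001 CPM in EV. Ucp3 ran against Arntl from animal to animal (r = -0.67, permutation adjusted p = 0.0217 over 36 relations) and with Per2 (r = 0.70, permutation adjusted p = 0.0115).

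Nfil3, the D-box repressor, had the lowest vector estimate of the other clock genes, at -0.87 on the log2 scale (edgeR adjusted p = 0.921), which rested on EV 3, 4 and 5: without them it was -0.11 (adjusted p = 0.918). It ran from 24.0 to 178.7 CPM (median 38.7, n = 10) in EV and from 27.3 to 47.0 CPM (median 29.1, n = 7) in Hand2 animals, and EV 3, 4 and 5 held 178.7, 177.9 and 68.0 CPM.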
